A study of Caenorhabditis elegans with 12 samples.

Results

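Splicing in sacy-1(tn1385) larvae was set directly against splicing in mog-5(az192) larvae, using 3 RNA-seq libraries of each mutant out of 12 libraries in the series. The sacy-1 libraries, from strain DG3430, are numbered az024 to az026, and the mog-5 libraries, from strain SZ454, az044 to az046. The other 6 libraries come from wild-type N2 and serve only as reference levels: N2 az02 is az021 to az023, numbered next to sacy-1, and N2 az04 is az041 to az043, numbered next to mog-5. All were whole Caenorhabditis elegans at the L3 stage, grown on plates of OP50 bacteria for 34 hours at 20 °C after embryos were isolated by bleaching. Ribosomal RNA was removed before sequencing with paired reads of 150 nt. Each mutant is 1 strain with 1 allele. Separate cultures for the libraries of a group are not stated in the labels, so the p-values cover only the spread among these libraries, and that may be technical.

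Introns are removed by the spliceosome, which joins a 5′ splice site (donor) to a 3′ splice site (acceptor). Acceptors can lie a few nucleotides apart, and the choice between them then adds or removes a short stretch at the start of the next exon. Helicases of the DEAD-box and DEAH-box families drive its rearrangements. SACY-1 corresponds to human DDX41, a DEAD-box protein that purifies with spliceosomes. MOG-5 corresponds to PRP22, the DEAH-box helicase that frees the finished mRNA from the spliceosome and is known from yeast to check acceptor choice. By the series title, both proteins were studied for proofreading against the acceptor nearer to the start of the intron, called here the upstream acceptor. The direct comparison asks where the larvae carrying one variant differ from those carrying the other.

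The value of an event is the use of its included form, in percent of both forms. In an alternative 3′ event, inclusion means that the intron ends at the upstream acceptor. Values at the ends of the scale are mostly listed as 0.1% or as 0.1% short of complete use, and the latter is called full use below. The catalogue of library introns gave 5137 events listed in all 6 mutant libraries, of 5267 in all (3416 alternative 3′ and 1721 alternative 5′ splice sites). The Ensembl catalogue gave 2431 of 2619, which are alternative first and last exons, skipped, multiple skipped and mutually exclusive exons, and retained introns. Between libraries of 1 group, 24.7% to 33.1% of library-intron events differed by at least 5 percentage points. The read depth behind each value is unknown, and the files hold no expression levels, so the strain and stage labels were not checked against marker genes. In the acceptor pairs up to 18 nt apart, mog-5 library az045 was the highest of its group in 53.7% of 2760 untied pairs. Its mean use was 37.4%, against 35.1% in az044 and 34.4% in az046. The library most often highest in the other groups was az041 in N2 az04 (47.6%), az022 in N2 az02 (46.1%) and az025 in sacy-1 (35.5%).

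Both mutants differ also in their library set, so mutant and set cannot be told apart in the direct difference. Beside it stands an N2-adjusted difference, in which each mutant is first set against the N2 libraries of its own number range. The labels do not pair N2 libraries with mutants; the pairing follows the numbering of the libraries. The direct and the N2-adjusted difference share the mutant libraries. Larvae were taken whole, so a different choice within cells and a different mix of cells cannot be told apart.

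Most of the called differences in the library-intron catalogue were at closely spaced acceptors, with higher use of the upstream acceptor in sacy-1 larvae. An event was called at an adjusted p below 0.05 (limma, Benjamini-Hochberg adjustment) and a difference of at least 15 points. That rule called 44 of 5137 library-intron events (0.857%), 40 of them higher in sacy-1 (0.779%) and 4 lower (0.0779%). Of the calls, 42 were alternative 3′ splice sites out of 3416 (1.23%), with 39 higher in sacy-1 (1.14%) and 3 higher in mog-5 (0.0878%). Alternative 5′ splice sites gave 2 calls out of 1721 (0.116%), 1 in each direction. The libraries of both mutants did not overlap in any of the 44, as in 21.6% of all tested events; the N2 sets did not overlap in 17.7%. Without az044 the count fell to 1, without az046 it was 17, without az024 18 and without az026 29. At an unadjusted limma p below 0.05, 609 of 3416 alternative 3′ events differed, 381 higher in sacy-1 and 228 in mog-5. Between the N2 sets 540 of 3385 did so, 476 higher in N2 az04 and 64 in N2 az02.

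The N2-adjusted difference called 75 of 5019 library-intron events (1.49%), of which 72 were higher in sacy-1 (1.43%) and 3 lower (0.0598%). Of the 43 direct calls that also had a value in every N2 library, 39 were N2-adjusted calls as well. The N2 sets differed by the same rule in 2 of 5098 events (0.0392%). The N2-adjusted count was 42 without az044, 45 without az043 and 115 without az045.

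The 39 alternative 3′ events higher in sacy-1 shared features that the call did not use. All 39 had acceptors at most 18 nt apart, as did 87.6% of all tested alternative 3′ events, and in 22 of them (56.4%) the distance was 9 nt, which holds for 16.6% of all tested alternative 3′ events. A further 8 lay 6 nt apart (20.5%, against 22.9% of all tested), 5 lay 12 nt apart and 2 lay 15 nt apart. In 37 of the 39 (94.9%) the distance was a multiple of 3 nt, so that both forms keep the same reading frame downstream, against 63.7% of all tested events. The median intron, measured to the upstream acceptor, was 49 nt long, against 69 nt over all tested. The lower and upper quartiles were 43.5 and 410.5 nt in the 39, against 44 and 356 nt over all tested. The 39 events were spread over 6 chromosomes, 19 of them on the plus strand (48.7%, against 49.2% of all tested). On X lay 5 of them (12.8%, against 15.1%).

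The call itself put the mog-5 mean of these 39 events below sacy-1. Of all 3416 tested alternative 3′ events, 1883 had mog-5 below sacy-1, and in 1209 of these mog-5 stood above both N2 means. Among the 39, the mog-5 mean stood above both N2 means in 37. The exceptions are A3.02873, where mog-5 was at 0.1% and the N2 means were 4.83% and 5.11%, and A3.00340, described further on. Median use of the upstream acceptor was 57.9% in sacy-1, 37.0% in mog-5, 7.19% in N2 az02 and 12.9% in N2 az04. The median difference from the own N2 set was 49.5 points in sacy-1 and 15.5 points in mog-5. The mog-5 mean lay above that of N2 az04 in 38 of the 39 (97.4%), against 76.2% of alternative 3′ events listed in all 12 libraries. In mog-5 against N2 az04, 15 of the 39 were called, and 66 of all 3433 alternative 3′ events tested there. The direct differences ran from 15.3 to 41.8 points, with standard errors from 0.744 to 3.90.

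The largest direct difference was in A3.02100 on chromosome IV (ce10, plus strand, 8983488 to 8983834), whose acceptors at 8983679 and 8983688 lie 9 nt apart after an intron of 46 nt. Upstream use was 75.4%, 82.0% and 83.5% in sacy-1 and 37.4%, 44.9% and 33.1% in mog-5. It was 9.92%, 16.9% and 6.85% in N2 az02 and 23.4%, 16.4% and 29.0% in N2 az04. All sacy-1 libraries lay above all mog-5 libraries, which lay above all N2 libraries. The direct difference was 41.8 points (standard error 3.90, limma adjusted p = 0.0218) and the N2-adjusted difference 53.6 points (adjusted p = 0.00197).

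A3.03481 on chromosome X (plus strand, acceptors 17600520 and 17600529, 9 nt apart, intron of 49 nt) was near 0 in N2 and low in mog-5. Upstream use was 43.6%, 42.1% and 47.2% in sacy-1 against 3.58%, 2.98% and 3.62% in mog-5. Every N2 library lay at or below 0.64%. The direct difference was 40.9 points (standard error 1.45, limma adjusted p = 0.00318), and the N2-adjusted difference was 40.7 points. A3.02204 on chromosome IV (minus strand, acceptors 11210268 and 11210256, 12 nt apart) also had sacy-1 above mog-5 and mog-5 above every N2 library. Its upstream use was 45.2%, 44.9% and 42.6% in sacy-1, 9.91%, 10.9% and 8.94% in mog-5 and at most 5.82% in any N2 library. It differed by 34.3 points directly (standard error 0.989, limma adjusted p = 0.0018).

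In other events mog-5 had moved part of the way from a low N2 level. A3.00167 on chromosome I (plus strand, acceptors 5260427 and 5260439, 12 nt apart) stood at 80.8%, 81.7% and 80.5% in sacy-1 and at 42.7%, 47.3% and 38.9% in mog-5. N2 az02 held 5.98% to 15.5% and N2 az04 18.7% to 24.2%, so that no 2 of the 4 groups overlapped. The direct difference was 38.0 points and the N2-adjusted one 47.7 points (limma adjusted p = 0.00819 and 0.00036). A3.02911 on chromosome V (minus strand, acceptors 19121905 and 19121899, 6 nt apart) stood at 79.6%, 82.6% and 79.2% in sacy-1 and at 48.0%, 50.7% and 42.6% in mog-5. Its N2 libraries ranged from 8.57% to 11.1% in az02 and from 20.3% to 26.5% in az04. Directly it differed by 33.4 points, and after N2 adjustment by 47.5 points.

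A3.03294 on chromosome X (minus strand, acceptors 10374683 and 10374677, 6 nt apart) had the largest mog-5 effect of these 10 events. Against the own N2 set, sacy-1 was 69.5 points higher and mog-5 32.2 points higher, and both were called. Its libraries stood at 75%, 71.6% and 78.5% in sacy-1 and at 41.5%, 44.4% and 40.6% in mog-5, without overlap. The direct difference was 32.8 points (limma adjusted p = 0.00968).

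**Figure D1:**
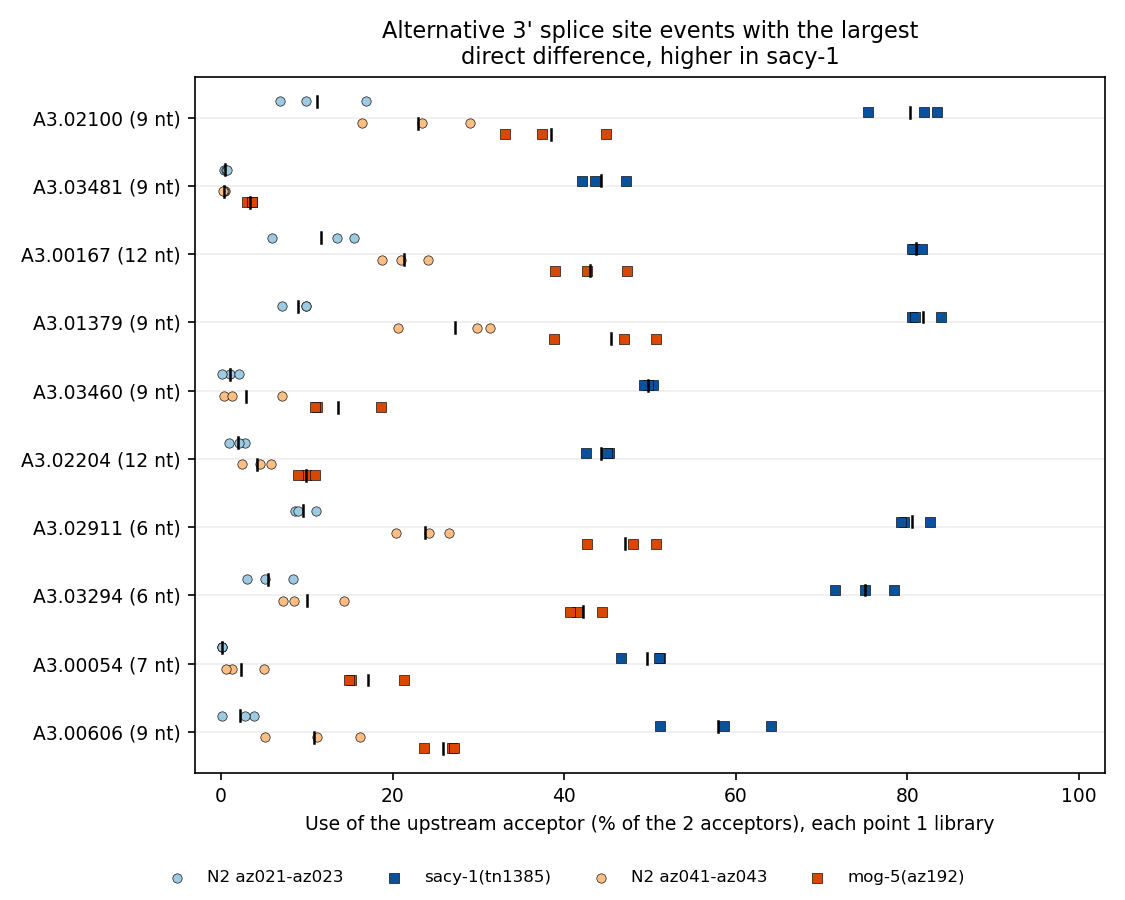
Use of the upstream acceptor, in percent, in the 10 alternative 3′ splice site events with the largest direct difference in favour of sacy-1. Each point is 1 library and each vertical bar the mean of 3 libraries; circles are N2 and squares are mutants. In every event the 3 sacy-1 squares lie to the right of the 3 mog-5 squares, for example 75.4% to 83.5% against 33.1% to 44.9% in A3.02100.

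In the 4 remaining events of the 10, sacy-1 was also the higher. A3.01379 on chromosome III (9 nt, acceptors 5118573 and 5118582) had a mean of 81.8% in sacy-1 and 45.5% in mog-5. N2 az02 held 7.14% to 9.92% there and N2 az04 20.6% to 31.3%. The N2 sets thus differed by 18.3 points, opposite to the mutants. A3.03460 on chromosome X (9 nt, acceptors 16967870 and 16967879) follows an intron of 1241 nt. It had means of 49.8% in sacy-1 and 13.6% in mog-5. A3.00606 on chromosome II (9 nt, acceptors 167895 and 167904) follows an intron of 816 nt and had means of 57.9% and 25.9%. A3.00054 on chromosome I (acceptors 2267443 and 2267436) lies 7 nt apart, so its forms differ in reading frame, and it had means of 49.6% and 17.1%. It was listed at 0.1% in every library of N2 az02. All 10 of these events were also N2-adjusted calls. With each mutant library left out in turn, their direct differences stayed between 29.0 and 45 points. All 10 calls were lost without az044, 8 without az024, 4 without az025, 4 without az046, 3 without az026 and 1 without az045, at adjusted p from 0.0504 to 0.147.

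Of the called alternative 3′ events, 3 were higher in mog-5. A3.00830 on chromosome II (minus strand, acceptors 7497812 and 7497769, 43 nt apart) was listed at 0.1% in all 3 sacy-1 libraries and at full use in the other 9 libraries. The sacy-1 libraries thus held the downstream form in place of the upstream one, opposite to the events above. Whether strain DG3430 differs in sequence at this locus was not tested. Its spread was 0 in every group, so its p-value rests on the spread of other events and is not given; it was called in both the direct and the N2-adjusted comparison.

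The other 2 events higher in mog-5 differed in much the same way between the N2 sets. A3.02558 on chromosome V (minus strand, acceptors 9159962 and 9159935, 27 nt apart) stood at 28.6%, 33.3% and 40% in sacy-1 and at 75.8%, 68.5% and 68.8% in mog-5. N2 az02 held 27.3% to 36.4% and N2 az04 63.0% to 64.7%. Its direct difference of −37.0 points became −6.55 after N2 adjustment (limma adjusted p = 0.706). Its annotated intron to the upstream acceptor is 27 nt long. A3.01545 on chromosome III (minus strand, acceptors 7928023 and 7928019, 4 nt apart) had means of 40.3% in sacy-1 and 70.0% in mog-5, against 44.2% in N2 az02 and 66.3% in N2 az04. Its direct difference of −29.8 points became −7.67 (limma adjusted p = 0.713). Both direct calls were lost without az024, az025, az044 or az046, A3.02558 also without az045 and A3.01545 also without az026, at −38.3 to −34.4 and −33.0 to −28.8 points.

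Among the direct calls with the largest difference between the N2 sets were also A3.01379, given above, and 2 more acceptor pairs. A3.00464 on chromosome I (15 nt, acceptors 10192118 and 10192103) stood at 95.7%, 89.8% and 87.2% in sacy-1, 71.9%, 71.4% and 69.3% in mog-5, 13.0% to 29.1% in N2 az02, while N2 az04 held 34.1% to 53.2%. The N2 sets differed there opposite to the mutants, and the direct difference of 20.0 points became 42.5 after N2 adjustment (limma adjusted p = 0.0249). That adjusted call was lost without az024, az041, az043, az044 or az046, at 38.8 to 43.0 points. A3.00340 on chromosome I (6 nt, acceptors 7991177 and 7991183) was the 1 event of the 39 that was no N2-adjusted call. It stood at 58.3% to 61.5% in sacy-1, 38.5% to 44.7% in mog-5 and 37.5% to 75% in N2 az02, and its direct difference of 18.5 points became 0.96. Both direct calls were lost when any 1 mutant library was left out, at 17.6 to 21.9 and 17.1 to 20.2 points.

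Alternative 5′ splice sites, where the donor rather than the acceptor varies, gave 1 call in each direction. A5.00371 on chromosome II (plus strand, donors 14 nt apart) was listed at 0.1% in all sacy-1 libraries and at 42.9%, 38.9% and 28.6% in mog-5, a difference of −36.7 points (limma adjusted p = 0.0322). It was not listed in az021 and stood at 77.8% in az022 and 50% in az023, so it has no N2-adjusted value. N2 az04 held 16.7% to 28.6% there. A5.01261 on chromosome V overlaps A3.02558; it was at full use in all sacy-1 libraries and at 64.0%, 75.9% and 65.8% in mog-5. N2 az02 held full use, 75% and 0.1% there, and N2 az04 57.1% to 63.4%. The N2-adjusted difference of A5.01261, 33.2 points, had a limma adjusted p of 0.775. Each direct call was lost when any of 5 of the 6 libraries was left out, all but az046 for A5.00371 and all but az045 for A5.01261.

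The mean use over whole distance classes differed by far less than these single events. In pairs 1 to 6 nt apart (1223 events) upstream use was 45.2% ± 0.43 in sacy-1 and 46.2% ± 1.82 in mog-5 (SD, n = 3; exact two-sided permutation p = 0.6). In pairs 7 to 18 nt apart (1725 events) it was 30.1% ± 0.33 and 28.1% ± 1.45 (exact permutation p = 0.2), and in pairs 19 to 60 nt apart (397 events) 56.4% ± 0.37 and 57.1% ± 0.36 (exact permutation p = 0.2). The libraries of both mutants overlapped in all 3 bins. For alternative 5′ sites the differences in the same bins were −0.37, −0.07 and 0.43 points, and the groups overlapped too. The smallest p that 3 libraries against 3 allow is 0.1, and the 6 adjusted values ran from 0.4 to 0.8.

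After N2 adjustment the 7 to 18 nt bin differed by 4.16 points (standard error 1.09) and the 1 to 6 nt bin by 2.20 (standard error 1.43). The N2 sets themselves were unequal, with N2 az04 higher by 2.17 and 3.18 points in these bins. The direct difference in the 1 to 6 nt bin was −0.97 points, and without az045 it was 0.02.

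By single distances, the direct difference was largest at 9 and 12 nt. At 9 nt (559 events) the means were 35.7%, 36.2% and 35.1% in sacy-1 and 31.5%, 34.9% and 30.6% in mog-5, a difference of 3.33 points without overlap. The classes are called at unlike rates: 22 of 559 pairs at 9 nt (3.94%) and 5 of 213 at 12 nt (2.35%), against 8 of 778 at 6 nt (1.03%) and 0 of 231 at 3 nt (0%). At 12 nt the means were 36.0%, 36.3% and 36.2% in sacy-1 and 32.1%, 34.8% and 31.4% in mog-5, a difference of 3.35 points. The N2-adjusted differences were 7.04 points at 9 nt (standard error 1.67) and 5.93 at 12 nt (standard error 1.24).

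At 6 nt the groups overlapped and mog-5 had the higher mean, 33.5% ± 2.74 against 31.7% ± 0.63 in sacy-1 (SD, n = 3). There N2 az04 stood 4.51 points above N2 az02, and the N2-adjusted difference was 2.75 in favour of sacy-1 (standard error 2.17). At 3 nt, where the upstream acceptor is already the major one in N2 (71.8% and 72.6%), the mutants differed by 0.99 points without overlap. In the 11 distance classes tested, 4 did not overlap between mutants; each had an exact permutation p of 0.1, and 0.275 after adjustment over the classes.

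**Figure D2:**
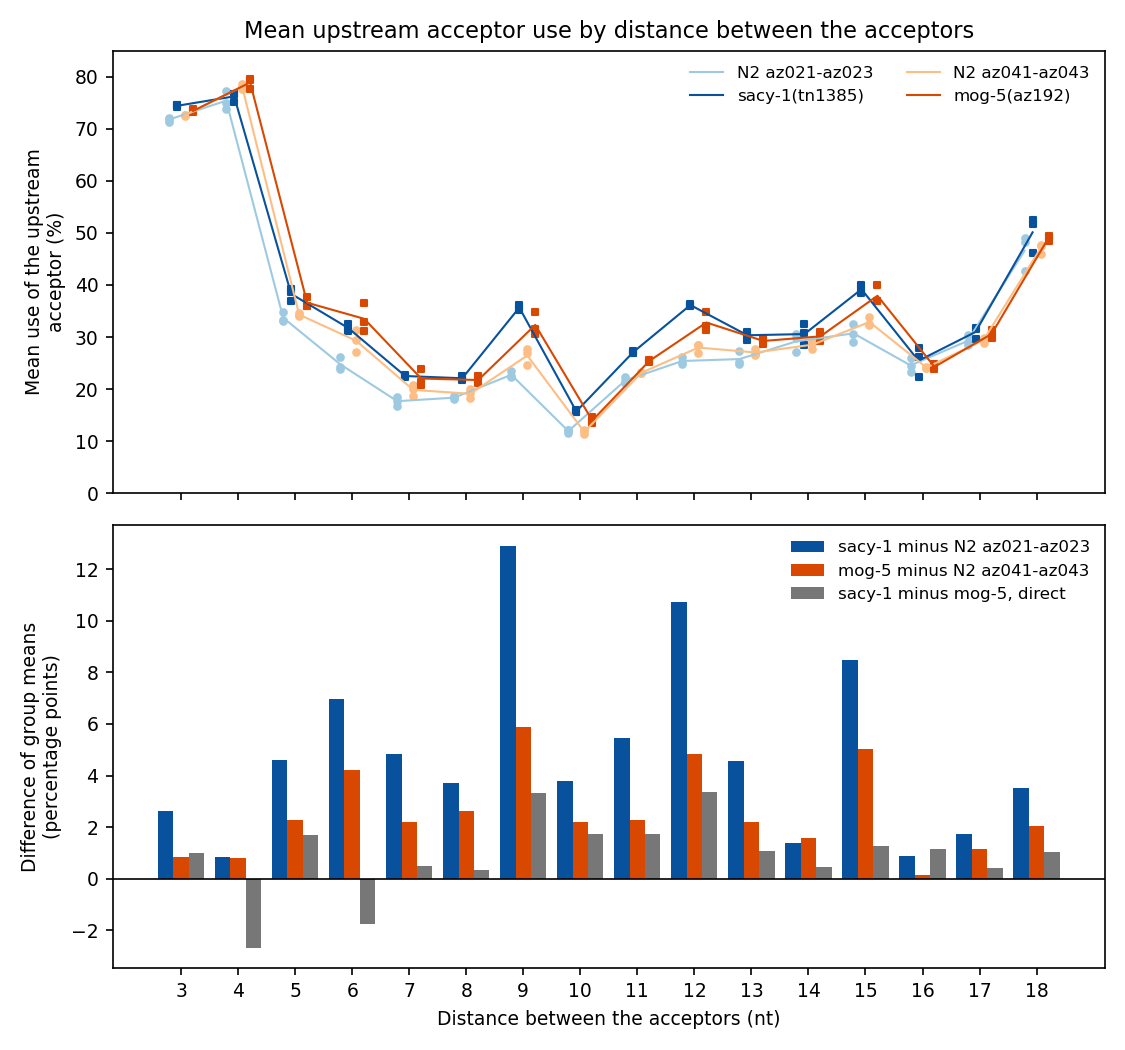
Top: mean use of the upstream acceptor, in percent, over all alternative 3′ events at each distance from 3 to 18 nt; points are libraries and lines join group means. Bottom: differences of group means in percentage points. The sacy-1 bars against N2 az021 to az023 reach 12.9 points at 9 nt and 10.7 at 12 nt, the mog-5 bars against N2 az041 to az043 5.87 and 4.82, and the direct bars 3.33 and 3.35.

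Called pairs were nearly all in frame. Among pairs whose distance is a multiple of 3 from 6 to 18 nt, 37 of 1671 were called (2.21%), and among frame-shifting pairs of 5 to 17 nt 2 of 907 (0.221%). The mean difference was 0.81 points in the first and 0.92 in the second, and the groups overlapped in both. Without az045 these became 2.11 and 1.41 points. Whether the 2 classes differ from each other was not tested.

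The in-frame pairs were also split by their N2 level. Where the mean over both N2 sets was below 10% (737 pairs), upstream use was 8.61%, 8.65% and 8.20% in sacy-1 and 5.97%, 7.62% and 5.49% in mog-5, without overlap, and 18 pairs were called (2.44%). Between 10% and 50% (590 pairs) the means were 36.7% ± 1.11 and 37.1% ± 4.91 (SD, n = 3) and overlapped, and 19 pairs were called (3.22%). Above 50% (344 pairs) the means were 86.1% and 85.9%, and 0 pairs were called.

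Set against their own N2 libraries, which these 2 comparisons do not share, sacy-1 gave 321 library-intron calls (6.33% of 5069) and mog-5 67 (1.3% of 5172). Of these, 52 events were called in both, which is 16.2% of the sacy-1 list and 77.6% of the mog-5 list. All 52 rose in both mutants, by a median of 46.5 points in sacy-1 and 25.3 points in mog-5. The sacy-1 effect was the larger in 47 of the 52, and in 3034 of all 5019 library-intron events listed in 12 libraries. The direct difference was also positive in 47, with a median of 11.5 points, and in 2681 of the 5019 (53.4%). Among the 52 it was called in 15, and in 15 its 95% confidence interval included 0.

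Of the 6 shared events with the largest smaller effect, 1 per locus, 3 were not called directly. A3.03114 on chromosome X (12 nt, acceptors 5286961 and 5286973) rose from at most 9.68% in any N2 library to 93.0%, 75.5% and 88.5% in sacy-1 and 61.4%, 64.9% and 51.3% in mog-5. Its direct difference of 26.4 points had a 95% confidence interval from 10.4 to 42.5 and was not called (limma adjusted p = 0.164). A3.01715 on chromosome III (9 nt, acceptors 11691193 and 11691202) stood at full use, 96.0% and 94.4% in sacy-1 and 88.9%, 94.6% and 83.6% in mog-5, against 31.8% to 47.2% in N2. These groups overlapped, and the direct difference of 7.75 points had an interval from −0.917 to 16.4. In A3.00066 on chromosome I (18 nt, acceptors 2765697 and 2765679), sacy-1 held 71.0% to 82.7% and mog-5 60.4% to 67.5%, a direct difference of 11.9 points (interval 2.21 to 21.6).

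The other 3 were direct calls. A3.00214 on chromosome I (6 nt, acceptors 6125647 and 6125653) stood at 82.5%, 83.2% and 85.8% in sacy-1 and 64.7%, 65.6% and 65.7% in mog-5, against 14.7% to 25.4% in N2. It differed by 18.5 points (limma adjusted p = 0.00653) and was no longer called without az044. A3.00306 on chromosome I (9 nt, acceptors 7539255 and 7539246) had means of 85.2% and 63.1%. A3.02334 on chromosome IV (6 nt, acceptors 15999282 and 15999276) had means of 82.6% and 51.5%. Their direct calls, at 22 and 31.1 points, were lost without any 1 of the 6 libraries for A3.00306 and without any but az026 for A3.02334, at 20.4 to 23.9 and 28.0 to 32.5 points.

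**Figure D3:**
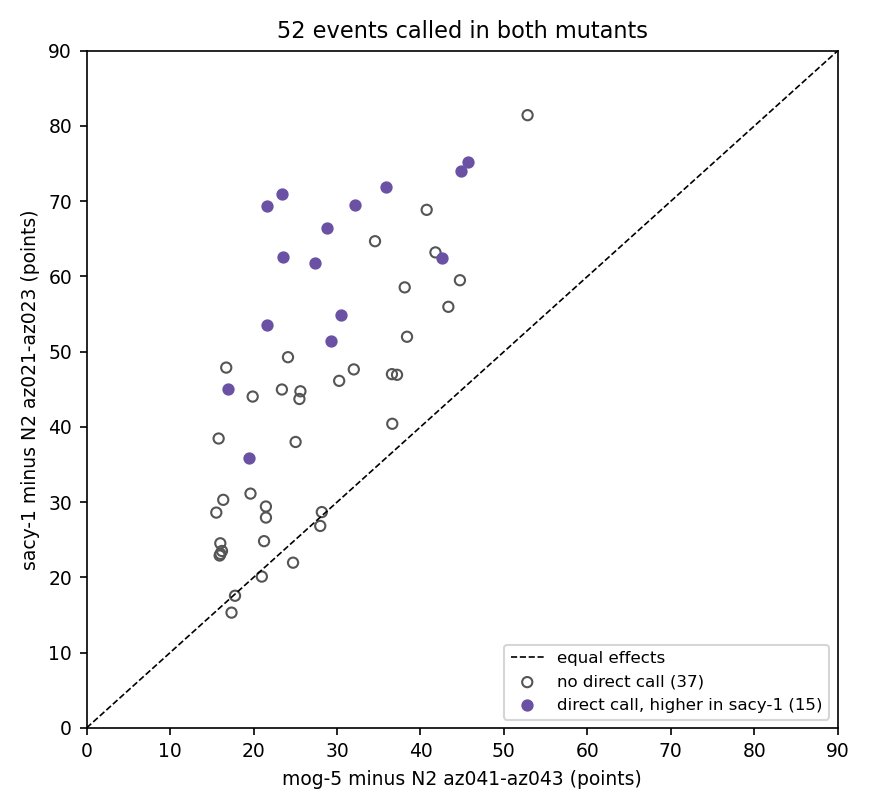
The 52 events called in both mutants, each against its own N2 set; the axes give the difference in upstream use in percentage points for mog-5 (x) and sacy-1 (y), and the dashed line marks equal effects. Of the points, 47 lie above the line, and filled points mark the 15 that were also called in the direct comparison.

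In the Ensembl catalogue the direct comparison called 49 of 2431 events (2.02%), 26 higher in sacy-1 (1.07%) and 23 lower (0.946%), at 39 loci. The N2-adjusted difference called 6 of 2380 (0.252%). Of the 48 direct calls with N2 values, 5 were N2-adjusted calls. In 42 of the 48 (87.5%) the N2 sets differed in the same direction as the mutants of those sets, as they did in 67.3% of all 1921 Ensembl events with nonzero differences. In the library-intron calls this held for 6 of 42 (14.3%), against 56.9% of 4854 events. N2 and mutant libraries are separate samples, so these 2 differences share no library.

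The size of the N2 difference separated the catalogues too. In the Ensembl calls the median direct difference was 25.7 points in absolute size, and the N2 sets differed by a median of 14.3 points, against 1.61 over all events. In the library-intron calls these medians were 27.2 and 5.08 points, the latter against 1.565 over all events of that catalogue. The N2-adjusted difference was at most 0.5 times the direct one, or opposite in sign, in 32 of the 48 Ensembl calls and in 3 of the 43 library-intron calls. The Ensembl count was 21 without az024, 13 without az025, 12 without az026 and 17 without az045.

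**Figure D4:**
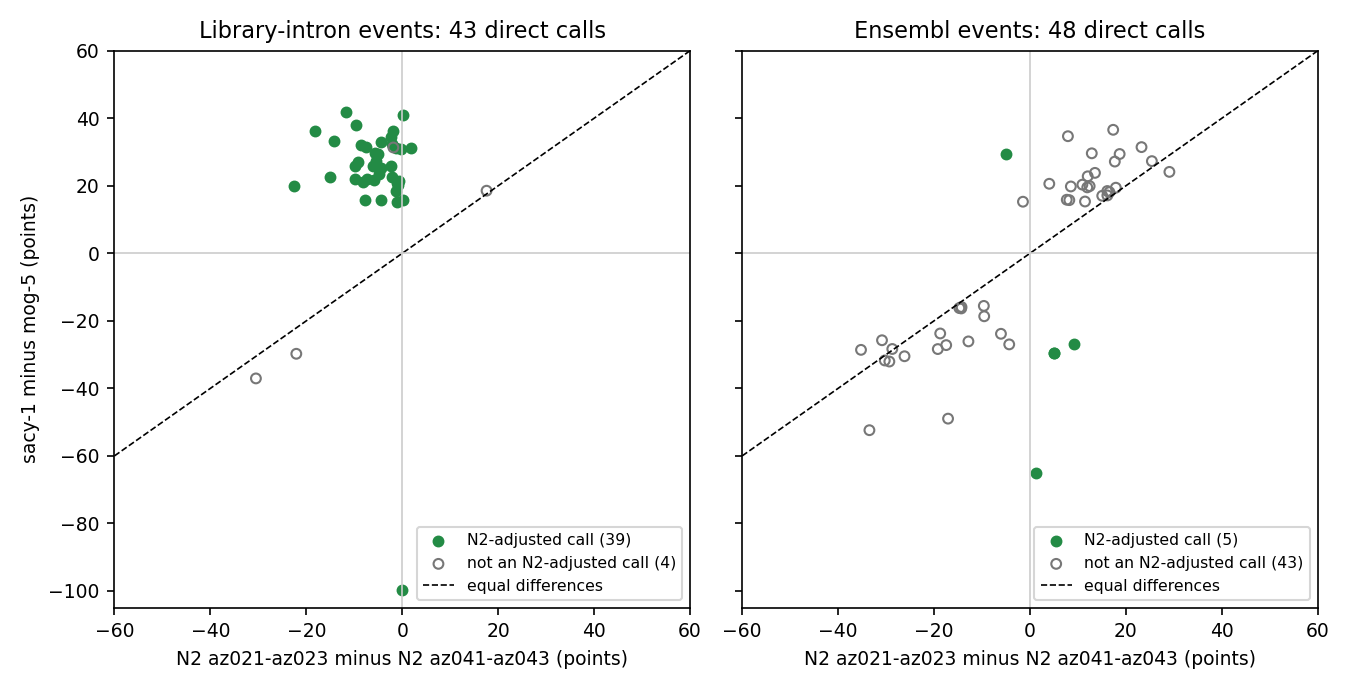
Direct calls with a value in all 12 libraries, with the difference between the N2 sets on the x axis and the difference between the mutants on the y axis, both in percentage points. On the dashed line both differences are equal. Filled points are also N2-adjusted calls: 39 of 43 library-intron events, which mostly lie left of 0 on the x axis, and 5 of 48 Ensembl events, while most open Ensembl points lie near the dashed line.

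The largest Ensembl skipped-exon difference was in SE.0000403 on chromosome X (minus strand), an exon of 88 nt at 17386800 to 17386887. It was included at 36.8%, 33.8% and 33.0% in sacy-1 and at 99.2%, full use and 99.3% in mog-5. All 6 N2 libraries lay at 97.6% or above, so the 3 sacy-1 libraries alone were low. Whether strain DG3430 differs in sequence there was not tested either. The direct difference was −64.9 points (standard error 1.13, limma adjusted p = 2.2e-04) and the N2-adjusted difference −66.1 points, and both calls held whichever library was left out. AL.0000028, an alternative last exon at the same locus, stood at 96.0%, 88.9% and 78.8% in sacy-1 and 25%, 0.1% and 10% in mog-5. Its direct difference was 76.2 points (limma adjusted p = 0.023). It was not listed in az021, so it has no N2-adjusted value, and stood at 16.7% in az022 and 0.1% in az023. N2 az04 ranged from 25% to 80% there. In all, 15 of 575 skipped exons were called (2.61%), 7 higher in sacy-1 and 8 lower, and SE.0000403 was the 1 N2-adjusted call among them.

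The next largest skipped exons had wide N2 ranges. SE.0000550 on chromosome V (exon of 84 nt) was included at 16.7%, 12.5% and 0.1% in sacy-1 and at 73.3%, 46.4% and 66.7% in mog-5, while N2 az02 reached at most 16.7% and N2 az04 ranged from 16.7% to 62.5%. SE.0000523 on chromosome V (exon of 153 nt) stood at 0.1%, 0.1% and 15.6% in sacy-1 and 42.4%, 55.4% and 64.8% in mog-5, with 5.56% to 30.4% in N2 az04. Their direct differences of −52.4 and −49.0 points became −18.9 and −31.9 after N2 adjustment (limma adjusted p = 0.885 and 0.421).

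Alternative last exons gave 7 calls of 280 (2.5%), and 4 of these were N2-adjusted calls. These 4 repeat the values of 2 acceptor pairs in the library-intron catalogue, in part as the opposite form. AL.0000064 on chromosome IV holds the same percentages as A3.01958, also a direct call: 76.5%, 76.5% and 76.2% in sacy-1, 45.6%, 50.3% and 45.1% in mog-5, 12.6% to 16.4% in N2 az02, and 15.5% to 23.5% in the other N2 set. It differed by 29.4 points directly and by 34.5 after N2 adjustment (limma adjusted p = 0.00493 and 0.00105). AL.0000024 on chromosome II mirrors A3.01058, at 17.4% to 18.6% in sacy-1, 40.2% to 48.9% in mog-5 and 74.1% to 92.8% in N2. AL.0000007 on chromosome X had means of 53.1% in sacy-1 and 23.5% in mog-5 with 42.9% and 30.1% in their N2 sets, and its direct difference of 29.6 points became 16.7 (limma adjusted p = 0.156).

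Retained introns were called 5 times of 796 (0.628%), each time with higher retention in mog-5, and in none after N2 adjustment. RI.0000211 on chromosome I (intron of 166 nt) was retained at 5.17%, 4.13% and 5.88% in sacy-1 and 34.5%, 36.7% and 29.0% in mog-5. N2 followed the same split, with 3.02% to 12.7% in az02 and 30.5% to 39.2% in az04, and the direct difference of −28.3 points became 0.36. RI.0000249 (chromosome I, 226 nt) had a direct difference of −31.7 points and an N2-adjusted one of −1.47. RI.0000800 (chromosome IV, 67 nt) went from −23.7 to −5.03 points. Over 773 retained introns mean retention was 53.2% ± 0.26 in sacy-1 and 53.8% ± 0.17 in mog-5 (SD, n = 3) without overlap, an N2-adjusted difference of −0.31 points with a standard error of 0.31. The exact permutation p was 0.1, the smallest possible, and 0.267 after adjustment over 8 classes.

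**Figure D5:**
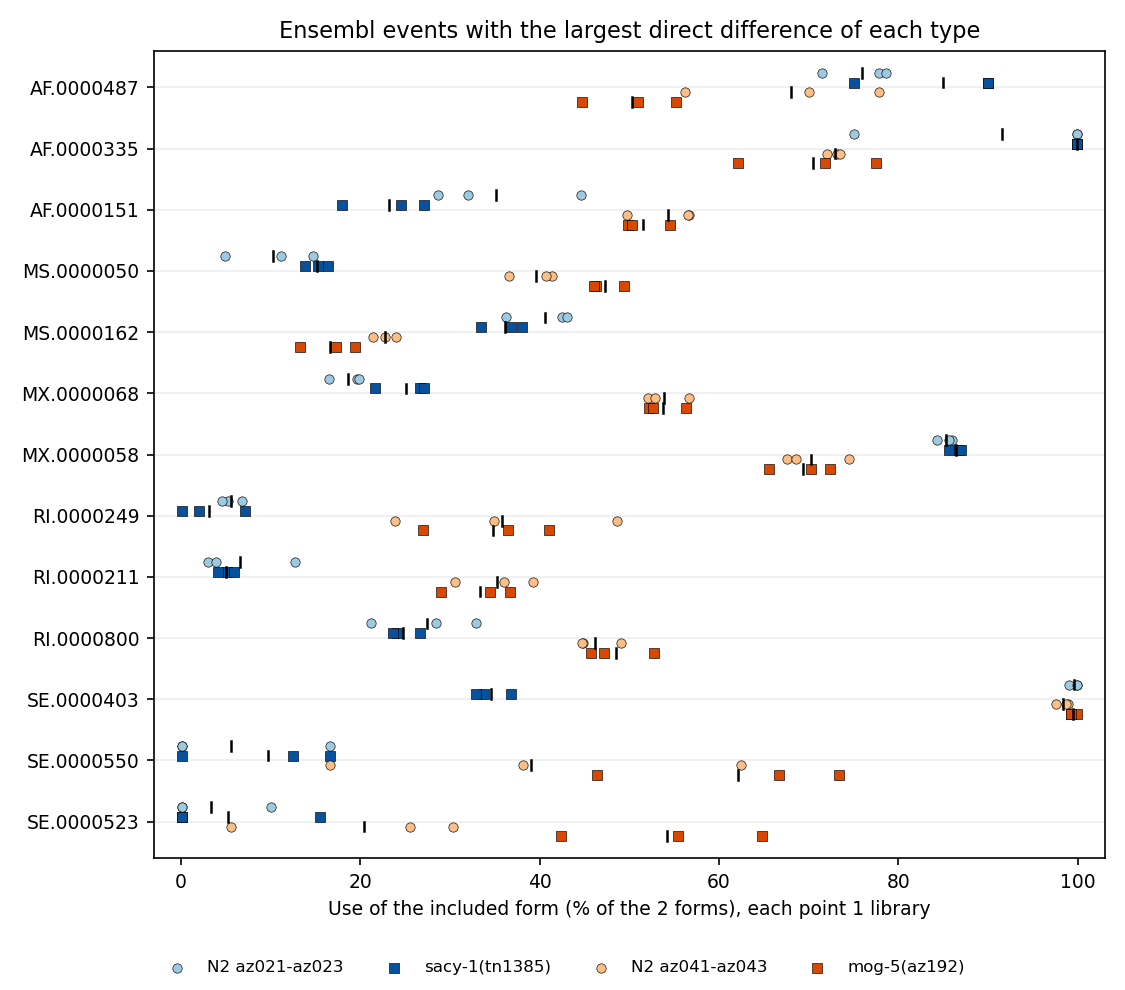
Use of the included form, in percent, in the Ensembl events of 5 types with the largest direct difference; each point is 1 library, each vertical bar a mean of 3, circles are N2 and squares mutants. In MX.0000068, RI.0000211 and MX.0000058 each mutant lies beside the N2 libraries of its own number range, while in SE.0000403 sacy-1 lies at 33.0% to 36.8% and all other libraries at 97.6% or above.

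Exon choices at other loci split by library set. MX.0000068 (chromosome I), a pair of mutually exclusive exons, stood at 21.6%, 26.7% and 27.1% in sacy-1 and 52.2%, 56.3% and 52.7% in mog-5, while N2 az02 held 16.5% to 19.8% and N2 az04 52.1% to 56.6%. Its direct difference was −28.6 points, and its N2-adjusted difference 6.63 in the other direction (limma adjusted p = 0.504). MS.0000050 (chromosome I), with several skipped exons, went from −32.0 to −2.74 points, MS.0000162 (chromosome V) from 19.4 to 1.53 and MX.0000058 (chromosome IV) from 17 to 1.98. For each of these 4 the N2 sets differed by 15.1 to 35.2 points in the direction of their mutants. In total 3 of 157 multiple skipped exons (1.91%) and 3 of 67 mutually exclusive exons (4.48%) were called directly, at 2 loci for each type. None of either type was called after N2 adjustment.

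Alternative first exons, which reflect where transcription starts as well as splicing, gave the most direct Ensembl calls, 16 of 556 (2.88%), with 12 higher in sacy-1. AF.0000487 on chromosome X stood at 90%, 90% and 75% in sacy-1 and 44.7%, 55.2% and 51% in mog-5, with N2 az02 at 71.4% to 78.6% and N2 az04 at 56.2% to 77.8%. Its direct difference of 34.7 points was 26.8 after N2 adjustment (limma adjusted p = 0.354). AF.0000335 (chromosome X) was at full use in every sacy-1 library and at 62.1% to 77.5% in mog-5, and its 29.4 points became 10.7. AF.0000151 (chromosome IV) went from −28.4 to −9.14 points. None of the 16 was an N2-adjusted call.

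Of 17 Ensembl events named here, direct calls were lost in 13 without az025, in 13 without az026, in 11 without az024, in 11 without az045, in 6 without az046 and in 5 without az044. The calls of AL.0000064, MS.0000050, MX.0000068 and SE.0000403 held whichever mutant library was left out. The N2-adjusted calls of AL.0000064, SE.0000403 and AL.0000024 held whichever of the 12 libraries was left out.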

How the data were processed

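The labels' protocols describe whole L3 larvae, rRNA depletion and paired reads; Bowtie2, STAR and SAMtools are named, with no version or role, in the notes on processing from the submitters. The authors deposited, per library and catalogue, a list of splicing events on build ce10 with a per mille score for the included and the excluded form, per the file headers; how the scores were made, and the read depth, are not given in the sources used here. Percent use is the share of the included score in the total of the 2 scores. In the library-intron catalogue the scores sum to 1000; in the Ensembl catalogue 147 of 2619 events had a sum below 500 in some library.

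Events listed in all 6 mutant libraries were tested with limma 3.58.1 (R 4.3.3) on percent use without covariates, with Benjamini-Hochberg adjustment per catalogue. The N2-adjusted difference is an interaction in 1 fit of all 12 libraries. Class means over libraries were compared with exact two-sided permutation tests. The fit was tested on simulated data. Members, lists and rules were chosen with earlier results of these data known.

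Events named are, among direct calls without overlap, up to 10 alternative 3′ events per direction and 3 events of each other type, taken by size of difference, 1 per locus. Added to these are the 8 direct calls with the largest called N2-adjusted difference, the 5 with the largest N2 set difference, in each catalogue, and the 6 events called in both mutants with the largest smaller effect, again 1 per locus. A3.00799, A3.01958, A3.01058 and A3.02873 were named after their values were seen. The closing section gives the alternatives: scale, spread model, minimum difference, end values, score sum, fit of all 12 libraries and each library left out. No genome of build ce10 was used here, so events carry the authors' identifiers and no gene names or sequences.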

Additional observations from a re-analysis of the deposited data

Results flagged for a closer look

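These results stand out because the effects of the 2 mutants, each against its own N2 set, differed by the interaction test in limma. It called 75 library-intron events and 6 Ensembl events. Among acceptor pairs the N2-adjusted difference, sacy-1 minus mog-5, was 53.6 points in A3.02100, 40.7 in A3.03481, 47.7 in A3.00167, 54.6 in A3.01379, 38.0 in A3.03460 and 36.6 in A3.02204. It was 47.5 points in A3.02911, 37.4 in A3.03294, 34.7 in A3.00054, 40.6 in A3.00606 and 42.5 in A3.00464.

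In 3 acceptor pairs that had risen in both mutants it was 29.4 points in A3.00306, 29.2 in A3.02334 and 19.9 in A3.00214. A3.00830 had −99.8 points, with every sacy-1 library at one end of the scale and all other libraries at the other. In the Ensembl catalogue it was 34.5 points in AL.0000064, −36.1 in AL.0000024 and −66.1 in SE.0000403.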

How the results depend on the processing

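Direct library-intron calls numbered 44; they were 90 in 1 fit of all 12 libraries, 13 with a variance trend, 76 without a minimum difference and 75 as N2-adjusted differences. Leaving out each library gave 1 to 47. The 75 N2-adjusted calls became 124 without a minimum difference and 42 to 115 with a library left out. Direct Ensembl calls numbered 49; they were 80 in 1 fit of all 12 libraries, 74 without events at the ends of the scale, 157 without a minimum difference, 83 at 10 points and 6 as N2-adjusted differences, and 12 to 37 with a library left out. The 6 N2-adjusted Ensembl calls became 10 without a minimum difference and 5 to 8 with a library left out. Arcsine scaling and, for Ensembl events, a score sum of at least 500 kept every count within 1.5 times. Of the alternatives, the score sum, the events listed in all 12 libraries and the reading frame without az045 were added after seeing the data. The cause was not tested.

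The bin mean differences changed sign as follows. For acceptor pairs of 1 to 6 nt the difference was −0.97 points directly, 2.20 after N2 adjustment and −1.77 to 0.0154 with a library left out. For acceptor pairs of 19 to 60 nt it was −0.70 and became 0.0351 without events at the ends. For donor pairs of 7 to 18 nt it was −0.07, 0.252 after N2 adjustment and −0.285 to 0.0756 with a library left out; for those of 19 to 60 nt it was 0.43, −0.648 as a median and −0.0493 after N2 adjustment. Among the named events, MX.0000068 turned to 6.63 points and RI.0000211 to 0.363 after N2 adjustment. In all, 554 of 728 comparisons of a named event with an alternative kept direction and call, and 171 lost the call. No paired analysis was possible because the labels give no replicate numbers shared between groups. Read depth is unknown, so values resting on few reads could not be set apart.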

Other observations

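The N2-adjusted comparison reached events that the direct one did not call, 36 of its 75 in the library-intron catalogue. Its 72 events higher in sacy-1 differed by 15.7 to 73.8 points, with a median of 30.9. Of these, 66 were in frame (91.7%) and 40 had a distance of 9 nt (55.6%), against 63.6% and 16.7% of all alternative 3′ events listed in 12 libraries.

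The events in this paragraph were chosen after their values were seen. A5.00112 on chromosome I, a pair of donors 4 nt apart, stood at 73.7%, 66.7% and 80.8% in sacy-1 and at 97.6% to full use in the other libraries. Its N2-adjusted difference was −25.4 points and its direct difference −26.2 (limma adjusted p = 0.0129 and 0.0672). A5.00802 on chromosome III, with donors 36 nt apart, stood at 50%, 50% and 0.1% in sacy-1 and 57.1%, 66.7% and 83.3% in mog-5, while N2 az02 was at full use and N2 az04 at 45.5% to 57.1%. Its N2-adjusted difference was −84.7 points and its direct difference −35.7 (limma adjusted p = 0.0456 and 0.445). It was also 1 of the 2 events called between the N2 sets, at −49.0 points. AF.0000310, an alternative first exon on chromosome II, was the 1 Ensembl N2-adjusted call outside the direct calls. It stood at 40%, 42.4% and 33.3% in sacy-1 and 25.6% to 31.3% in mog-5, while N2 az02 held 13.3% to 20.5% and N2 az04 30.5% to 34.7%. Its N2-adjusted difference was 26.0 points and its direct difference 9.18 (limma adjusted p = 0.0438 and 0.181).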
